A study of Mus musculus with 6 samples.

Results

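The genes described here build, link, bind or degrade the hyaluronan matrix of the ovulating follicle. The 10 genes are Has2, Ugdh, Tnfaip6, Ptx3, Vcan, Hapln1, Chst15, Cd44, Cemip and Hyal1. They were chosen by their role in hyaluronan synthesis, linking, binding and breakdown, out of 19324 gene symbols in the platform annotation. In all, 29 probe sets name one of them, and a probe set is the group of array probes that reports 1 transcript. Of the 10 genes, 9 have at least 1 probe set that names no other gene. Both probe sets that list Hyal1 also list Naa80, so no value could be assigned to Hyal1.

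RNA came from granulosa cells, the somatic cells that surround the oocyte and line the follicle, of 23-day-old mice. Knockout animals were labelled ERK1 knockout and ERK2 fl/fl;Cyp19CRE, which means that ERK1 is deleted in all tissues and ERK2 only where Cre is made from Cyp19 (aromatase) sequences, and animals of the other genotype were labelled wild type. Mice of both genotypes were given 5 IU of equine chorionic gonadotropin (eCG) 48 h before collection, or before 5 IU of human chorionic gonadotropin (hCG), and cells were taken without hCG (0 h) or 2.5 h or 4 h after it. Each genotype and time had 1 array, 6 in all, with no replicates, so differences between arrays have no error and no p-value of their own, and the number of arrays limits the precision. The labels do not say how many animals gave the cells of an array, or whether wild type animals carried Cre or the floxed allele.

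In the hours after the ovulatory surge of luteinizing hormone, for which hCG stands in, the cumulus granulosa cells around the oocyte secrete hyaluronan. This long sugar chain is built from alternating glucuronic acid and N-acetylglucosamine. Proteins cross-link it into an elastic gel, the mucified cumulus, which leaves the follicle with the oocyte. ERK1 and ERK2 are the last kinases of the MAP kinase cascade that the EGF receptor activates in these cells.

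Promoter windows of 4 of the genes are shown. Tnfaip6, Ptx3 and Chst15 were lower in knockout at both times after hCG and hold a match to a motif searched. Vcan differed little by its brightest probe set and holds none. Cd44, not shown, was also lower at both times, and its window holds no match. The 4 windows shown were picked by expression and motif together, so the contrast among them is not a result. Each runs 5′ to 3′ on the gene's strand from 250 bases before to 50 bases after a RefSeq transcript start (build GRCm38.p6). The positions are chr2:52037863-52038162 (plus strand) for Tnfaip6, chr3:66219637-66219936 (plus) for Ptx3, chr7:132316977-132317276 (minus) for the second of 2 Chst15 starts, and chr13:89742463-89742762 (minus) for Vcan. Capitals mark every match to 1 of 7 motifs searched on both strands.
Tnfaip6: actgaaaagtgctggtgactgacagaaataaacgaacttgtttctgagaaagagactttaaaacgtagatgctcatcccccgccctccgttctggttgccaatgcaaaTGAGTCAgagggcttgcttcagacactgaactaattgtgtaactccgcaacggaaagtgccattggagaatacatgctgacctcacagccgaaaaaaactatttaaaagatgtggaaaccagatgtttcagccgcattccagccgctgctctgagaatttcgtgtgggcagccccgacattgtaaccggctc
Ptx3: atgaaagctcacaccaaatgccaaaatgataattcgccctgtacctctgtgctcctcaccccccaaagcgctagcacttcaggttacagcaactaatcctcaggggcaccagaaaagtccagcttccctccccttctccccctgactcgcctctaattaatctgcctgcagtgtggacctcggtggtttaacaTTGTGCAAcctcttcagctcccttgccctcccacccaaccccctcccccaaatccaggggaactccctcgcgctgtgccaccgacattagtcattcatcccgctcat
Chst15: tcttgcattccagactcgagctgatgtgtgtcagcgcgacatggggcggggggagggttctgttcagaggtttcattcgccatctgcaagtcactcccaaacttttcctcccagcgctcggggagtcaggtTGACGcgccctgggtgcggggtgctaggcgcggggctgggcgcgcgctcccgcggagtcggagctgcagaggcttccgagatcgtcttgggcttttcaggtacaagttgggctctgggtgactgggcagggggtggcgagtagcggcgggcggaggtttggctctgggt
Vcan: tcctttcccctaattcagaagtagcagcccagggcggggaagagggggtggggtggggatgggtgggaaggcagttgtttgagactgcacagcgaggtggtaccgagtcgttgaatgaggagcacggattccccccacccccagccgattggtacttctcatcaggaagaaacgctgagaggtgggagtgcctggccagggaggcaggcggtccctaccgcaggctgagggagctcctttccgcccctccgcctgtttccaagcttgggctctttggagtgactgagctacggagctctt

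The motifs were the cyclic AMP response element TGACGTCA, its half-site TGACG, the AP-1 site TGANTCA, a C/EBP site TTGCNNAA, an EGR site GCGNGGGCG, a RUNX site TGTGGT and the TATA box TATAAA. The first of these contains the half-site. Windows were in hand for 9 of the 10 genes, all but Has2, with 2 for Chst15. Tnfaip6 had an AP-1 match that began 142 bases before the start, a motif present in 7.81% of all 32851 windows searched. These are the windows of the RefSeq table without those of a single chromosome, which was left out. Ptx3 had a C/EBP match 57 bases before the start (10.8% of all windows). Chst15 had a half-site 119 bases before its second start (20.8%), Ugdh an EGR match 148 bases before its start (5.55%) and Cemip a TATA box 29 bases before its start (13.6%). Hapln1 also had a half-site, which began at base 29 after its start. No motif was found in more than 2 of the 9 genes, the full cyclic AMP element was in 0 of the 9 (1.79% of all windows), RUNX matches lay in Hapln1 and Hyal1 (16.8%), and none of the 7 motifs was in the Vcan or Cd44 window. A match is a run of letters in these windows and not a measured binding site.

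Intensities are the deposited values on a linear scale, and readings under a floor of 64 (log2 6) were treated as close to background. A gene counted as different when a pair of arrays differed at least 2-fold and the brighter one reached that floor. A fold against an array under the floor is a ratio of measured values and depends on background. Where several probe sets name a gene, the one brightest on average over the 6 arrays represents it. On that probe set 3 of the 9 genes reached the floor on every array (Vcan, Ugdh and Chst15), 5 on some arrays and 1, Hapln1, on none. Levels of different genes are not compared, since probe sets differ in brightness. In RNA from mixed cells, fewer cells of a type and less RNA per cell cannot be told apart.

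Before hCG, 2 of the 9 genes were at least 2-fold lower in knockout than in wild type cells and 0 were higher. Across all 18194 genes with a probe set of their own, 0.566% were lower and 0.506% higher by the same rule. Cemip, a hyaluronan-binding protein needed for hyaluronan breakdown, was the first of them and Chst15 the second. At 2.5 h after hCG, 7 of the 9 passed as lower in knockout and 0 as higher, against 1.93% lower and 0.929% higher among all genes. At 4 h the same 7 genes (Has2, Ugdh, Tnfaip6, Ptx3, Chst15, Cd44 and Cemip) were lower and 0 higher, against 2.62% and 3.14%. The genes without such a difference were Vcan and Hapln1. With cyclic loess scaling the same 7 genes passed at both times after hCG, while with averaged probe sets 6 passed at 2.5 h (without Cemip) and 5 at 4 h (without Cemip and Cd44). Cyclic loess moved the share of higher genes among all that passed to 22.7% at 2.5 h and 39.6% at 4 h, against 32.4% and 54.6% as deposited.

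**Figure D1:**
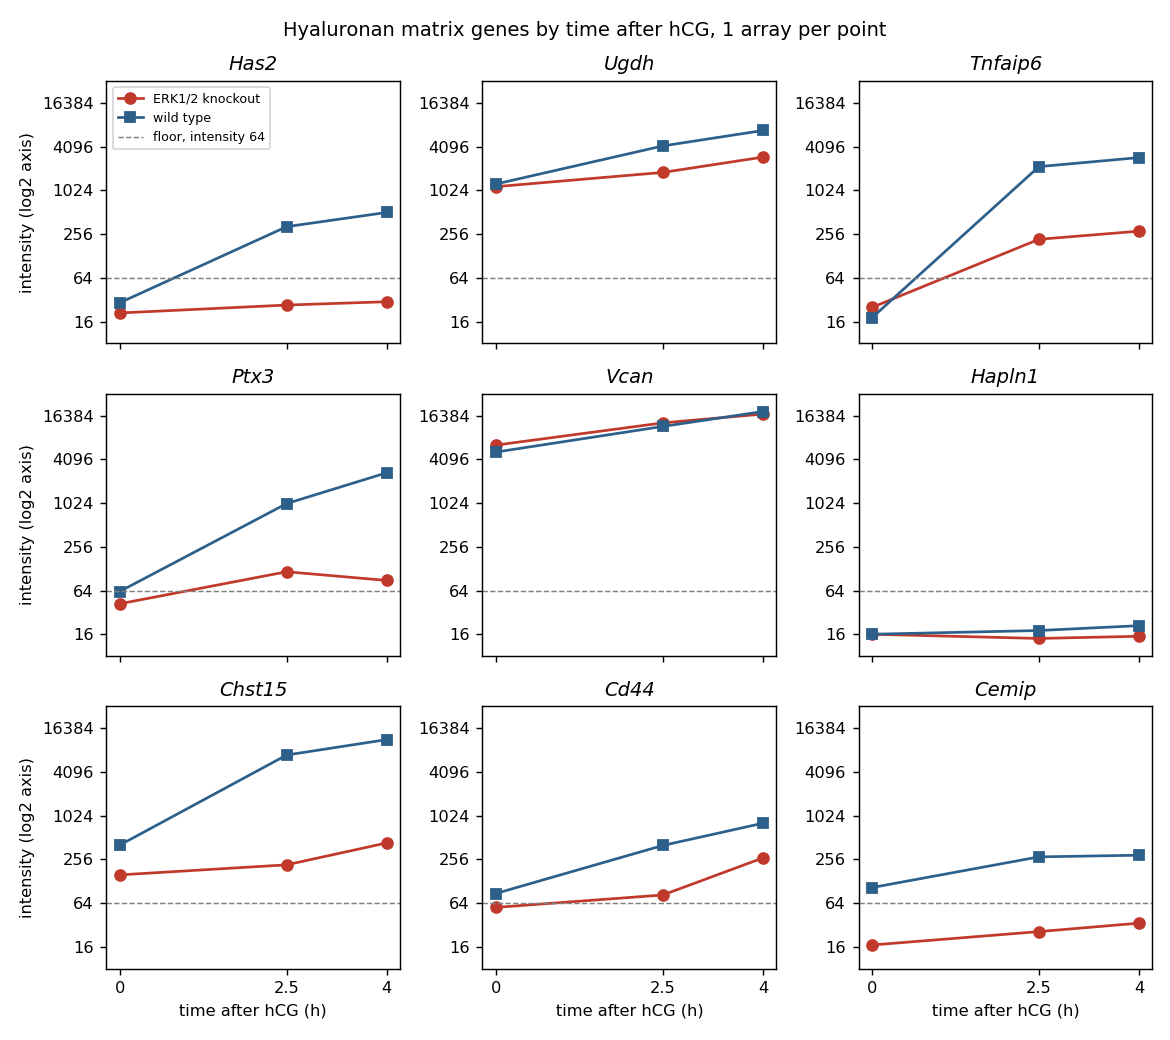
Intensity (log2 axis) of the representing probe set of 9 hyaluronan matrix genes against time after hCG (h), in ERK1/2 knockout (circles) and wild type (squares) granulosa cells, 1 array per point; the dashed line is the floor of 64. Lines of Vcan run together, Hapln1 lies under the floor throughout, and the other 7 genes lie lower in knockout at 2.5 h and 4 h.

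Synthesis of the chain begins with Has2, the hyaluronan synthase of the cumulus cell membrane. Has2 had intensities of 21, 27 and 30 at 0 h, 2.5 h and 4 h in knockout cells, against 29, 324 and 509 in wild type cells. All 3 knockout arrays and the wild type array at 0 h were under the floor, and both wild type arrays after hCG were well over it. Knockout was 12-fold lower at 2.5 h (-3.58, log2) and 17.0-fold lower at 4 h (-4.08). With the knockout readings set to the floor, these folds were 5.06 and 7.95. The second Has2 probe set read 15, 24 and 24 in knockout and 21, 476 and 697 in wild type, with genotype differences of -4.31 and -4.86 (log2) after hCG. No knockout array of either probe set reached the floor.

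Ugdh, the dehydrogenase that makes UDP-glucuronic acid, one of the building blocks of hyaluronan, differed less. Its intensities were 1151, 1808 and 2939 in knockout cells and 1251, 4187 and 6835 in wild type cells at 0 h, 2.5 h and 4 h. The genotypes were close at 0 h (-0.12, log2), and knockout was 2.32-fold lower at 2.5 h and 2.33-fold lower at 4 h. Intensity was higher at each later time in both genotypes. At 4 h Ugdh was 2.55-fold over its 0 h level in knockout and 5.46-fold in wild type.

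Tnfaip6 (TSG-6) moves the heavy chains of inter-alpha-inhibitor, a serum protein, onto hyaluronan. It had intensities of 25, 217 and 281 in knockout cells at the 3 times, against 18, 2172 and 2897 in wild type cells. Both genotypes were under the floor at 0 h and over it after hCG. Among the 9 genes, Tnfaip6 had the largest hCG response in each genotype at both times, at 8.68-fold and 11.2-fold in knockout and 121-fold and 161-fold in wild type. Knockout nevertheless stood at 9.99% of wild type at 2.5 h and 9.7% at 4 h (-3.32 and -3.37, log2). Tnfaip6 has 1 probe set.

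Ptx3, a pentraxin that forms multimers and binds those heavy chains, differed more at 4 h than at 2.5 h. Its values were 42, 116 and 88 in knockout and 62, 1007 and 2680 in wild type. From 2.5 h to 4 h the knockout value was 1.32-fold lower while the wild type value was 2.66-fold higher. Knockout was 8.68-fold lower than wild type at 2.5 h and 30.5-fold lower at 4 h, where it stood at 3.28% of wild type, the lowest share at that time among the representing probe sets of the 9 genes. Within knockout, Ptx3 was 2.76-fold and 2.1-fold over its own 0 h array. Against the wild type 0 h array these responses were 0.9 and 0.51 (log2), under 2-fold. A second Ptx3 probe set read 18 to 23 on all arrays and carried no measurable signal.

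Vcan (versican) is a chondroitin sulfate proteoglycan that binds hyaluronan at one end. By its representing probe set it had 6425, 13003 and 17200 in knockout cells and 5151, 11613 and 18645 in wild type cells. The genotypes were within 1.25-fold of each other at every time, and both were higher at each later time. The sign of the small difference at 2.5 h (0.16, log2) turned with cyclic loess scaling (-0.08). The response at 4 h was 2.68-fold in knockout and 3.62-fold in wild type. At 2.5 h it was 2.02-fold in knockout, a value just over the 2-fold rule that fell under it after cyclic loess scaling (0.93, log2).

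Other Vcan probe sets gave a wider genotype difference. Of 8 that name Vcan, 5 reached the floor on at least 1 array. The second brightest read 1153, 3538 and 5425 in knockout and 1139, 4805 and 9698 in wild type, which put knockout at 55.9% of wild type at 4 h. The third brightest put it at 60.6%. A pair of dimmer ones (286 and 171 in wild type at 4 h) put it at 23.1% and 28.7%, against 92.2% by the representing probe set. Each of the 5 had knockout below wild type at 4 h, by more than 2-fold for 2 of them, while at 2.5 h the sign differed between them (-0.73 to 0.4, log2).

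**Figure D2:**
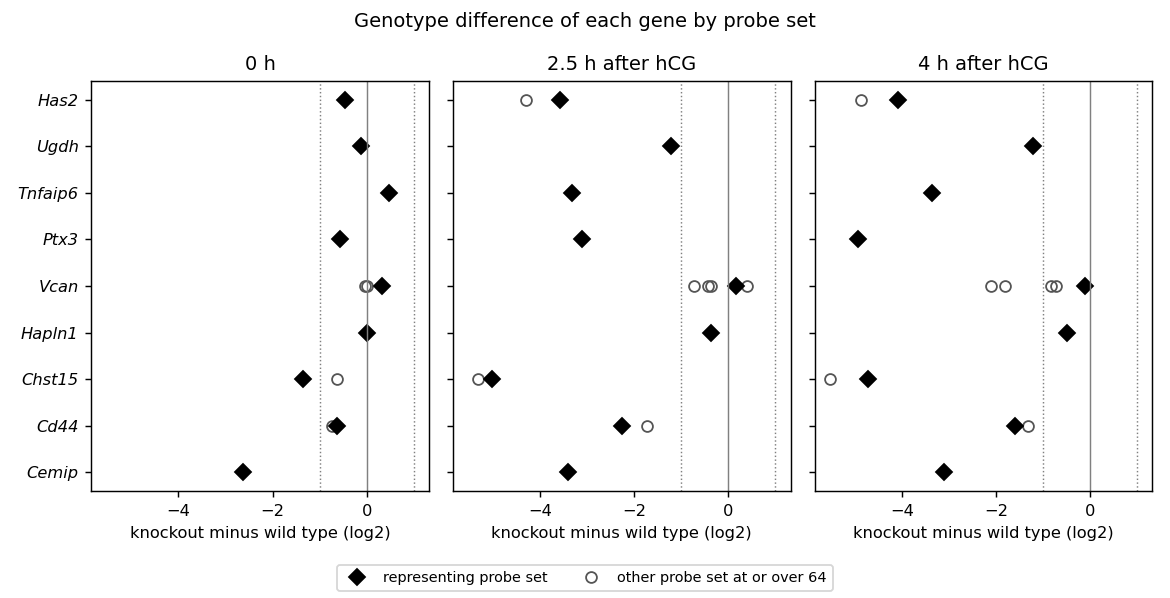
Knockout minus wild type difference (log2) of each gene at 0 h, 2.5 h and 4 h after hCG; diamonds are the representing probe set (under the floor throughout for Hapln1) and open circles other probe sets of the gene that reached intensity 64 in that pair of arrays. Dotted lines mark 2-fold, and at 4 h the Vcan probe sets spread from -2.12 to -0.12.

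Hapln1, a link protein that holds proteoglycans such as versican on hyaluronan, gave no measurable signal. Its 4 probe sets read 10 to 21 on the 6 arrays, all under the floor. The 2-fold rule could not have counted it.

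Chst15 is a sulfotransferase that adds a further sulfate to chondroitin sulfate chains, such as those of versican. Its intensities were 157, 216 and 433 in knockout cells and 403, 7019 and 11451 in wild type cells. Every knockout array lay below every wild type array taken after hCG, though the arrays of a genotype are different times and not replicates. The knockout reading at 4 h was near that of wild type at 0 h. Knockout was 2.57-fold lower at 0 h, 32.5-fold lower at 2.5 h and 26.4-fold lower at 4 h. At 2.5 h it stood at 3.08% of wild type, the lowest share at that time among the representing probe sets.

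The second Chst15 probe set, with 52, 59 and 81 in knockout and 81, 2360 and 3742 in wild type, gave -0.64, -5.32 and -5.53 (log2). The lower level at 0 h thus passed 2-fold by 1 of 2 probe sets. Within knockout, Chst15 at 4 h was 2.76-fold over its own 0 h array (1.46, log2), and 0.1 (log2) over the wild type 0 h array. Between 2.5 h and 4 h it was 2.00-fold higher in knockout and 1.63-fold higher in wild type. That knockout step fell just under 2-fold after cyclic loess scaling (0.96, log2).

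Cd44, a cell surface receptor of hyaluronan, was lower in knockout at both times after hCG. It read 56, 83 and 269 in knockout cells and 87, 399 and 808 in wild type cells. At 2.5 h knockout was close to wild type at 0 h, and its 4 h level lay between those of wild type at 0 h and 2.5 h. From 2.5 h to 4 h Cd44 was 3.24-fold higher in knockout and 2.03-fold higher in wild type. Knockout was 4.81-fold lower than wild type at 2.5 h and 3.0-fold lower at 4 h. A second probe set (50, 92 and 274 in knockout, 83, 304 and 684 in wild type) gave -1.72 and -1.32 (log2) at these times. The other 2 Cd44 probe sets stayed under the floor.

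Cemip was lower in knockout before hCG as well as after it. Its representing probe set had 17, 26 and 34 in knockout and 105, 278 and 293 in wild type. All knockout arrays were under the floor and all wild type arrays over it. The arrays of a genotype are different times, not replicates, and the share of all genes separated like this was not counted. Knockout was 6.18-fold lower at 0 h, 10.7-fold at 2.5 h and 8.62-fold at 4 h, as ratios to readings near background. With the knockout readings set to the floor these folds were 1.64, 4.34 and 4.58, so at 0 h a 2-fold difference rests on values under the floor. Within wild type, Cemip was 2.65-fold and 2.79-fold over 0 h. This result rests on 1 probe set, because the other 2 Cemip probe sets read 15 to 28 on all arrays.

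Hyal1 codes for a lysosomal hyaluronidase. The pair of probe sets shared with Naa80 read 221, 196, 215 and 143, 109, 118 in knockout at the 3 times, against 247, 141, 165 and 131, 107, 98 in wild type. Neither differed by 2-fold in any of the 9 comparisons between arrays, and how the signal divides between the genes was not tested.

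In knockout cells, 3 of the 9 (Tnfaip6, Ptx3 and Vcan) passed as higher at 2.5 h than at 0 h and 0 as lower, against 2.13% and 2.35% of all genes. At 4 h it was 6, with Ugdh, Chst15 and Cd44 added, and 0 lower, against 2.43% and 3.03%. In wild type cells, 8 passed as higher at 2.5 h and 0 as lower, against 2.24% and 0.649% of all genes, and at 4 h the counts were again 8 and 0, against 3.47% and 5.74%. With cyclic loess scaling the share of higher genes among all that passed in wild type was 90.8% at 2.5 h and 52.8% at 4 h, against 77.5% and 37.7% as deposited. The comparisons within a genotype share its 0 h array, and those between genotypes share arrays with them.

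From 2.5 h to 4 h, Cd44 and Chst15 passed as higher in knockout (0.286% of all genes higher and 0.33% lower) and Ptx3 and Cd44 in wild type (1.01% and 1.2%), with 0 of the 9 lower. For the 8 genes that reached the floor, the log2 response was smaller in knockout than in wild type at both times, as it was for 35.2% of all genes at the floor at 2.5 h and 33.0% at 4 h. It was smaller by at least 2-fold for 6 of the 8 at 2.5 h and 5 at 4 h, against 2.47% and 3.92%. Among the 3 genes at the floor on every array, the knockout log2 response at 4 h was 30.3% of that in wild type for Chst15, 55.2% for Ugdh and 76.5% for Vcan. The 0 h readings of Has2, Tnfaip6 and Ptx3 in both genotypes, and of Cd44 and Cemip in knockout, were under the floor, so the size of their responses depends on background.

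**Figure D3:**
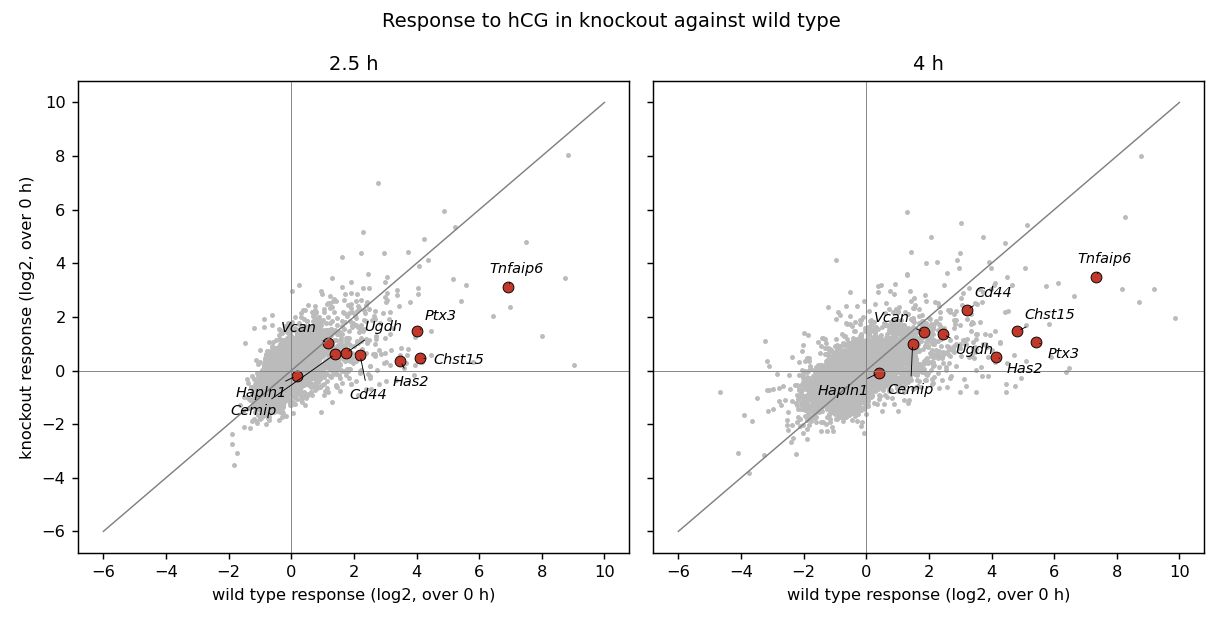
Knockout response against wild type response (log2 over the 0 h array of the same genotype) at 2.5 h and 4 h after hCG; red points are the 9 genes, grey points 11153 genes with a mean log2 of at least 6, and the diagonal marks equal responses. The 9 genes lie below the diagonal at both times, with Vcan closest to it and Hapln1 under the floor.

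Fits over all 6 arrays used limma with Benjamini-Hochberg adjustment over 11153 genes with a mean log2 of at least 6. Of the 9 genes, 8 entered. Has2 and Cemip entered through their wild type arrays alone, so a count over those 8 supports nothing by itself. The residual of these fits comes from how a difference varies from 1 time or genotype to another, and the spread between animals is not in it. In the genotype difference over the 3 times, knockout was lower at an adjusted p below 0.05 for 1 of the 8, Cemip (-3.05, SE 0.18, adjusted p = 0.0343). Among all genes 0.0269% were lower and 0.00897% higher. The 3 knockout readings of Cemip were under the floor, so this estimate is measured against background. The estimate for Chst15 was -3.70 (SE 0.69, adjusted p = 0.128), for Ptx3 -2.87 (SE 0.74, adjusted p = 0.207), for Has2 -2.71 (SE 0.67, adjusted p = 0.196) and for Vcan 0.12 (SE 0.15, adjusted p = 0.655). Without the 4 h arrays 5 of the 8 passed (Has2, Ptx3, Cd44, Cemip and Chst15). The count over all genes was then 245, against 4 with all arrays. With cyclic loess scaling or with no floor 0 of the 8 passed.

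When the genotypes were pooled and the 2.5 h and 4 h arrays set against 0 h, the hCG difference passed for 5 of the 8 genes, all higher and 0 lower, against 3.44% higher and 6.73% lower among all genes. They were Tnfaip6 (5.21, SE 0.79, adjusted p = 0.0234), Cd44 (2.06, SE 0.32, adjusted p = 0.0244), Ugdh (1.55, SE 0.26, adjusted p = 0.0274), Vcan (1.37, SE 0.16, adjusted p = 0.0121) and Cemip (1.12, SE 0.19, adjusted p = 0.0286). The knockout readings of Cemip (17, 26 and 34) were all under the floor, so its pooled estimate is in part background. In knockout alone, Cemip passed the 2-fold rule at neither time. With no floor 1 passed, Vcan, and without the 4 h arrays all 8 did, when the count over all genes was 1462, against 1135 with all arrays. The test of the genotype by hCG interaction in limma found 0 genes in the whole table at an adjusted p below 0.05, and 1015 of 11153 (9.1%) at an unadjusted p below 0.05. Tnfaip6 (-3.82, SE 0.38, adjusted p = 0.264), Has2 (-3.37, SE 0.43, adjusted p = 0.343), Chst15 (-3.51, SE 0.71, adjusted p = 0.509) and Ptx3 (-3.46, SE 0.84, adjusted p = 0.535) were the 4 of the 8 with an unadjusted p below 0.05. The smaller knockout responses stand as measured differences that did not pass this test. Since 0 genes of the whole table passed it, the test cannot decide whether these responses differ.

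Among themselves the genes fell close together or apart by pattern. Over the 6 arrays, the Pearson correlation of log2 intensity ran from 0.246 (Vcan with Cemip) to 0.991 (Has2 with Chst15) across the 28 pairs of the 8 genes that reached the floor. Ptx3 had r = 0.984 with Has2 and 0.967 with Chst15. Cd44 had r = 0.982 with Ugdh, and Tnfaip6 had 0.96 with Ugdh. Vcan was furthest from Cemip, Chst15 (0.505) and Has2 (0.51). With 6 arrays that share the same hCG and genotype contrasts, these values describe the shape of the profiles only.

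Outside the group, the most similar profiles were sought among 554 genes with a mean log2 of at least 6 and a range of at least 2. Closest to Has2 were D16Ertd472e and Rab7b (r = 0.997 each) and Rnd3 (0.996), a small GTPase. Closest to Chst15 were Cited4 and Rab7b (0.996 each) and Plau (0.993), the urokinase plasminogen activator. For Ptx3 they were Cyp4f18 (0.996), Errfi1 (0.994), an inhibitor of the EGF receptor, and Pxdc1 (0.993). For Tnfaip6 they were Epgn (0.99), an EGF-like ligand, Nfkbiz and Ddc (0.987 each). Ugdh was closest to Rnf180 (0.996), Aldh1l1 (0.991) and Bin1 (0.99), Cd44 to Kcnj8 (0.994), Nrcam (0.993) and Rims4 (0.991), and Cemip to S100a6 (0.978), Aplnr and Lipg (0.976 each).

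The surrounding pathway was examined through 6 lists of hyaluronan and chondroitin genes, in which 68 measured genes lie outside the group. At 4 h, 5 of the 68 were at least 2-fold lower in knockout than in wild type, 2 were higher and 61 did not pass the rule. Among all genes 2.62% were lower and 3.14% higher at 4 h. At 2.5 h 3 were lower and 1 higher, against 1.93% and 0.929% of all genes. At 0 h 3 were lower and 0 higher, against 0.566% and 0.506%. The counts of single lists below take in members of the group, and the same shares of all genes apply to them. The medians of the lists at 4 h lay between -0.4 (receptors) and 0.29 (chondroitin chain synthesis), beside 0.06 for all measured genes.

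**Figure D4:**
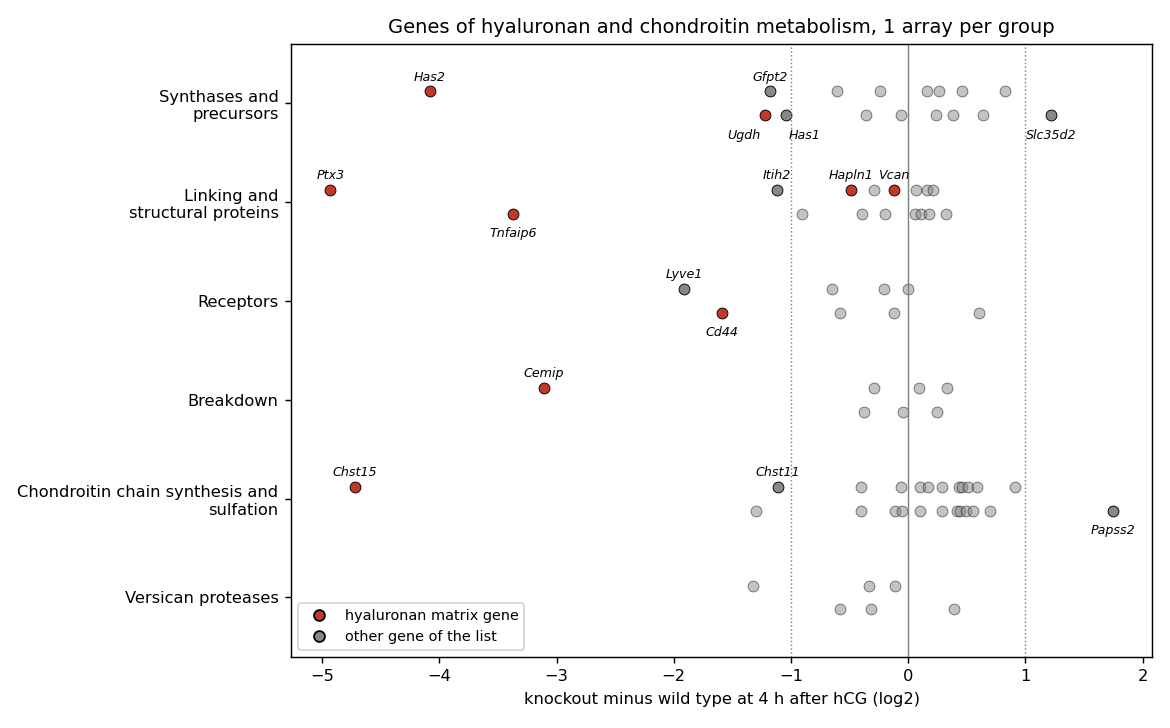
Knockout minus wild type difference (log2) at 4 h after hCG for each measured gene of 6 lists of hyaluronan and chondroitin metabolism, 1 array per group; red points are the hyaluronan matrix genes, grey points other genes, dotted lines 2-fold, names mark the red points and genes that passed the rule, and unnamed points past a dotted line were under the floor on both arrays. Ptx3, Chst15, Has2, Tnfaip6 and Cemip lie left of -3, while Papss2 and Slc35d2 lie right of 1.

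Precursor and synthase genes had 16 measured members, of which 4 were at least 2-fold lower in knockout at 2.5 h and at 4 h. Besides Has2 and Ugdh these were Has1 and Gfpt2. Has1, another hyaluronan synthase, read 56, 58 and 56 in knockout and 49, 180 and 115 in wild type, so its knockout arrays were all under the floor. The 4 h difference of Has1 did not pass with a floor of log2 7. Gfpt2, a rate-limiting enzyme of the pathway to UDP-N-acetylglucosamine, read 462, 615 and 649 in knockout and 605, 1370 and 1470 in wild type, 2.23-fold and 2.27-fold lower. Slc35d2, a nucleotide sugar transporter, was 2.33-fold higher in knockout at 4 h, at 126 against 54 in wild type, a value under the floor. The other 11 members did not pass the rule at 4 h. Nagk, the kinase that salvages N-acetylglucosamine, read 362 in knockout and 204 in wild type at 4 h, and in wild type this was over 2-fold below the 0 h value of 492.

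Linking and structural proteins had 16 measured members, and Itih2 was 1 of the 3 that were lower in knockout at 4 h. Itih2, a heavy chain of inter-alpha-inhibitor, read 106, 79 and 91 in knockout and 333, 221 and 198 in wild type. It was 3.14-fold lower at 0 h, 2.8-fold at 2.5 h and 2.18-fold at 4 h. Every knockout array was below every wild type array, though the arrays of a genotype are different times and not replicates. The share of all genes separated like this was not counted. Itih5, a related heavy chain, was at least 2-fold lower at 4 h than at 0 h in both genotypes, with 2610 against 7458 in knockout and 2419 against 6788 in wild type. Bcan (brevican), a hyaluronan-binding proteoglycan, read 108, 122 and 131 in knockout and 225, 216 and 246 in wild type, a 2-fold difference at 0 h. The other Bcan probe set stayed under the floor. Of 8 receptors, Cd44 and Lyve1, a hyaluronan receptor of lymphatic vessels, were lower at 4 h, Lyve1 with 98 in knockout and 368 in wild type. Lyve1 was also lower at 0 h, with 43 in knockout and 88 in wild type. That 0 h difference did not pass with a floor of log2 7 or with averaged probe sets. Of 7 measured breakdown genes, 1 was lower at each time, Cemip. Cemip2, a cell surface protein of hyaluronan breakdown, read 288 in knockout and 351 in wild type at 4 h, and Hyal2, a further hyaluronidase, read 860 in knockout and 806 in wild type.

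In the chondroitin list, 24 measured members had 2 at least 2-fold lower in knockout at 4 h and 1 higher. Chst11, a chondroitin 4-O-sulfotransferase, read 3148 in knockout and 6774 in wild type at 4 h, 2.15-fold lower. Papss2 makes PAPS, the sulfate donor of all sulfotransferases, and it was on the opposite side from Chst15. It read 1642, 5871 and 4999 in knockout and 1424, 2313 and 1483 in wild type. Knockout was 2.54-fold higher at 2.5 h and 3.37-fold higher at 4 h. At 4 h, the 2 other Papss2 probe sets over the floor gave 0.92 and 1.43 (log2). Chst12 and Chst14, sulfotransferases of chondroitin and dermatan chains, were at least 2-fold lower at 4 h than at 0 h in wild type, with 212 against 705 and 589 against 1371. With the knockout 0 h array, these falls were -0.98 and -0.93 (log2), under 2-fold. The knockout readings of Chst12 and Chst14 at 4 h were 320 and 959.

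By their representing probe sets, 0 of the 6 versican proteases passed the 2-fold rule between genotypes at any time, and with cyclic loess scaling 1 did, Adamts4 at 2.5 h (-1.01, log2). Adamts1, which cleaves versican at ovulation, read 674, 1843 and 1821 in knockout and 1029, 3058 and 2714 in wild type. Adamts9 read 266, 1167 and 1562 in knockout and 423, 1356 and 1947 in wild type. Both were at least 2-fold over 0 h in each genotype at both times. With the wild type 0 h array, the knockout rises of Adamts1 were 0.84 and 0.82 (log2), under 2-fold. Adamts5 went the other way, with 2304, 824 and 610 in knockout and 2163, 1105 and 466 in wild type, 3.78-fold and 4.64-fold below 0 h at 4 h. For Adamts4 and Adamts9, other probe sets over the floor gave larger differences after hCG. For Adamts4 these were -2.99 at 2.5 h and -2.72 at 4 h (log2). For Adamts9 they ran from -1.35 to -0.71 at 2.5 h and from -2.36 to -1.19 at 4 h.

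The labelled cell type was checked against its markers. All 9 measured granulosa markers reached the floor on every array, with a summed intensity of 131202 to 156041 in knockout and 84063 to 135813 in wild type. At 0 h 0 of the 9 differed by 2-fold between genotypes (median -0.1, log2), while 2 were higher in knockout at 2.5 h (median 0.56) and 5 at 4 h (median 1.47), such as Inhbb with 22865 in knockout and 2518 in wild type. Markers of other cell types moved with genotype in places. Oocyte markers, all but Figla over the floor, summed to 9171 to 25113 in knockout and 7959 to 13357 in wild type. At 0 h the oocyte sum was 25113 in knockout and 13357 in wild type. By the 2-fold rule 1 oocyte marker was higher in knockout at 0 h, Bmp15 with 482 against 215. The 3 theca markers summed to 5178 to 15563 in knockout and 3293 to 5270 in wild type, with Gli1 under the floor throughout. The theca sum followed Cyp17a1, with 14251 and 13997 in knockout after hCG and 2037 and 1399 in wild type, while Ptch1 had 1060 and 1540 in knockout and 1789 and 1868 in wild type. Endothelial markers (6) summed to 516 to 534 in knockout and 505 to 941 in wild type, with Pecam1 and Emcn under the floor on every array. Of the 6, 2 were at least 2-fold lower in knockout at 2.5 h, against 1.93% of all genes, and 0 at 0 h or 4 h. They were Cdh5 (81 against 163 in wild type) and Cldn5 (69 against 170). Leukocyte markers (8) summed to 1388 to 1858 in knockout and 1317 to 1383 in wild type, with Ptprc under the floor on every array. Surface epithelium markers (7), all over the floor on every array, summed to 2894 to 3956 in knockout and 2596 to 3007 in wild type. By the 2-fold rule 1 of these was higher in knockout at 0 h, 2 at 2.5 h and 3 at 4 h. Among all genes 0.506%, 0.929% and 3.14% were higher at these times. Stromal fibroblast (5) and smooth muscle (5) markers had 0 such differences between genotypes at any time. The part of these cells in the genotype differences above was not tested. Levels of the targeted genes were not analysed here, which leaves the genotype labels unchecked.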

How the data were processed

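Biotin-labelled cRNA from total RNA was hybridised to Affymetrix arrays. The deposited intensities, 1 per probe set and array, were made with RMA in the affy package, per the submitters' processing notes (versions are not given in the sources used here). They were whole numbers from 9 to 59425 with an array median of 54 or 55, and log2 was taken. Quantile scaling in RMA hides any change in total RNA per cell, and rounding leaves dim probe sets in coarse steps.

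The platform annotation gave 1 symbol to 34958 of 45101 probe sets, several to 932 and none to 9211. By gene ID, 34754 matched RefSeq genes of GRCm38.p6 and 0 symbols changed. The brightest probe set by mean log2 represented each of 18194 genes. Because each group had 1 array, the 9 array comparisons rest on size alone (2-fold, brighter array at log2 6 or more). The fits used limma 3.58.1 in R 4.3.3 on all 6 arrays: an additive model of time and genotype, and a model of 4 cells for the interaction. They were checked on simulated data. Alternatives were cyclic loess, the mean of all probe sets, other floors, no floor, an intensity trend, the 0 h array of the other genotype, and leaving out a time. Promoter windows came from RefSeq.

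Named genes were all 10 members, the 3 most correlated genes for each of 7 members with a range of at least 2 (log2), and listed pathway genes that differed by 2-fold in any comparison, with a few listed genes that did not (Hyal2) named after their values were seen. Members and lists were chosen with earlier results of these data known.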

Additional observations from a re-analysis of the deposited data

How the results depend on the processing

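No paired analysis was possible because each genotype and time had 1 array and the labels carry no replicate numbers. Over the 9 comparisons of arrays there were 45 calls of the 2-fold rule for the members, of which 43 were kept with cyclic loess, 45 with a floor of log2 5, 42 with a floor of log2 7, 32 when the probe sets of a gene were averaged, and 21 of 25 hCG calls with the 0 h array of the other genotype, with 0 changes of sign. Cyclic loess moved the median of all genes by at most 0.17 (log2) and the members' differences by -0.24 to 0.2. For knockout against wild type, the count of 7 became 6 at 2.5 h and 5 at 4 h with averaged probe sets (Cemip under the floor at both times, Cd44 -0.89 at 4 h). At 0 h, the count of 2 became 0 with averaged probe sets (Cemip -0.98, Chst15 -1.0, which lies just inside 2-fold) and 1 with a floor of log2 7. From 2.5 h to 4 h, the knockout count of 2 became 1 with cyclic loess and 0 with averaged probe sets, and the wild type count of 2 became 0 with averaged probe sets. That average takes in probe sets that stayed under the floor, such as 2 of the 3 for Cemip. In limma, the genotype count of 1 became 0 with cyclic loess, 0 with averaged probe sets, 0 with no floor and 5 without the 4 h arrays. The hCG count of 5 became 3 with averaged probe sets, 1 with no floor and 8 without the 4 h arrays; the cause was not tested. Over all genes, the genotype count of 4 became 0 under the first 3 of these, 8 with an intensity trend, 16 without the 2.5 h arrays and 245 without the 4 h arrays, and the hCG count of 1135 became 687 with cyclic loess, 701 with averaged probe sets, 432 with no floor, 736 without the 2.5 h arrays and 1462 without the 4 h arrays. With cyclic loess, Adamts4 at 2.5 h (-1.01) and Bcan at 4 h (-1.03) joined the listed genes that were 2-fold lower in knockout. The interaction count was 0 under each of its alternatives. By single probe sets under the floor, the sign turned for Ptx3 (0.07, knockout against wild type at 2.5 h), Cd44 (0.09 for knockout against wild type at 4 h and -0.11 for wild type at 2.5 h), Vcan (-0.17 for wild type at 2.5 h and -0.09 for knockout at 4 h) and Cemip (-0.08, wild type at 4 h). Adjusted p over the alternatives ran from 8.27e-07 to 0.0997 for the genotype difference of Cemip and from 0.00157 to 0.258 for that of Chst15. Dim arrays limit the folds of Has2 and Cemip, whose knockout values lie near background.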
